A study of Mus musculus with 2 samples.

Results

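The genes described here encode the enzymes that oxidise fatty acids in mitochondria and peroxisomes, with the transcriptional regulators of that pathway. They were chosen by name, as 37 gene symbols looked up among the probes of both arrays, and 36 of them were found under exactly that symbol, on 47 probes, among 22801 named genes on the array. The remaining symbol, Eci1, is on the array under its older name Dci, so its values are given apart and enter no count. The study compared control and Lamtor1 knockdown RAW264.7 cells, a macrophage-like line of mouse origin, with 1 array for each, the knockdown cells carrying short hairpin RNA from a lentivirus. Lamtor1 anchors the Ragulator complex, which holds the kinase complex mTORC1 at the lysosome, and the series asks about the activity of the transcription factor TFEB without Ragulator. The labels give both samples the same text on infection with 2 lentiviral vectors and limiting dilution, so it is unknown here how the controls were treated and whether a sample descends from 1 cell. With 1 array per group no difference has a replicate check and no p-value was computed, and the number of arrays limits the precision.

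Fatty acids are burned in mitochondria after activation to acyl-CoA and transfer to carnitine, by which long chains cross the inner membrane. Each turn of the cycle then removes a short unit by dehydrogenation, hydration, a further dehydrogenation and thiolysis, and passes electrons through the electron transfer flavoprotein. Peroxisomes run a parallel cycle on very long and branched chains, with an oxidase as the first enzyme. The nuclear receptors of the PPAR and ERR families, with the PGC-1 coactivators, are the best known activators of these genes. Ppargc1a is known in liver as a gene that TFEB can activate, and in macrophages fatty acid oxidation is known for its part in alternative activation.

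Promoter sequence is shown for the genes to which most of what follows returns: the regulator gene that was above background in the knockdown array alone, the gene of the entry enzyme of mitochondrial oxidation, and the peroxisomal oxidase gene. Each is the 250 bases before the RefSeq start of the gene in the GRCm38.p6 build, read in the direction of the gene, at chr5:51567726-51567975 on the minus strand for Ppargc1a, chr19:3323051-3323300 on the plus strand for Cpt1a and chr5:35582784-35583033 on the plus strand for Acox3. Capitals mark matches, on either strand, to the GC box with the letters GGGCGG, to the box named for its letters CCAAT, and to TGACG, a half-site of the cyclic AMP response element.
Ppargc1a: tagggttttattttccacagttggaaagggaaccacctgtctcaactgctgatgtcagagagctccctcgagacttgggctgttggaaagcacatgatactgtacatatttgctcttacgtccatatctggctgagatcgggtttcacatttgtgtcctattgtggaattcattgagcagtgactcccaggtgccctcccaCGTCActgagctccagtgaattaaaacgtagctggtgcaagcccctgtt
Cpt1a: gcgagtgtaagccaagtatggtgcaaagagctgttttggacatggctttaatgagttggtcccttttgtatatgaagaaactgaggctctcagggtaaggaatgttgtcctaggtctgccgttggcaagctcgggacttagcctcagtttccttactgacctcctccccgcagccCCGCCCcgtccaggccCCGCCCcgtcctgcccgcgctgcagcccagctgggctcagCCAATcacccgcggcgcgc
Acox3: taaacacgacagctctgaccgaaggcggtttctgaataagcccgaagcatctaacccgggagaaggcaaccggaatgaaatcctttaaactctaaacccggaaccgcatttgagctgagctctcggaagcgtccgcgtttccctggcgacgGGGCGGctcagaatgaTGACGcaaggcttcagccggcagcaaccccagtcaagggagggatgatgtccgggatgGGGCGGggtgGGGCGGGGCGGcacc
The Ppargc1a stretch held 1 match, a cyclic AMP half-site, the Cpt1a stretch held 2 GC boxes and 1 CCAAT box, and the Acox3 stretch held 4 GC boxes and 1 cyclic AMP half-site.

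Promoters were found for 30 of the 37 genes, 31 stretches in all, each reaching from 250 bases before to 50 after the start. The E-box CACGTG, which is the core of the site that TFEB binds, was in 0 of the 31, against 7.15% of 32851 mouse promoters of the same length. The longer form TCACGTGA contains that E-box and was in 0 as well, against 0.974%. The ERR site TCAAGGTCA was in 0, against 0.423% of all promoters, and the PPAR repeat, a pair of AGGTCA with any base between, was in 0, against 0.0396%. The shorter ERR half-site AAGGTCA was in 1, that of Acadm, against 4.72%. GC boxes were in 23 of the 31 (74.2%), against 35.7% of all promoters, CCAAT boxes in 14 (45.2% against 37.4%), and cyclic AMP half-sites in 12 (38.7% against 20.8%). All searches covered both strands. A match is a run of letters and not a measured binding site, and a missing match covers this window only.

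Of 43020 spots per array, 53.3% (control) and 52.9% (knockdown) exceeded background clearly by the scanner flag. Lamtor1 was 23.1-fold lower in the knockdown, at levels of 4.10 in the control and -0.43 in the knockdown. A level here is the log2 signal relative to its array's 75th percentile. A difference is the knockdown level minus the control level. All 10 macrophage markers were well above background on both arrays. Their summed signal, before any scaling, was 565000 in the control and 594000 in the knockdown. The 75th percentile was also higher in the knockdown, 1255 against 1172, so these sums show no rise in level. Single markers differed in both directions, with 5 lower in the knockdown, led by Adgre1 (-1.56), Itgam (-0.84) and Csf1r (-0.82), and 5 higher, led by Cd68 (1.22), Mpeg1 (0.72) and Tyrobp (0.52). Of 5 markers each of fat cells, liver, striated muscle and fibroblasts, 0, 1, 1 and 1 were above background in the control. In the knockdown the numbers were 0, 2, 1 and 1, the added one being Cyp2e1. Of 5 lymphocyte markers, Cd3e and Cd4 were above background on both arrays, with differences of 0.048 and 0.073. The part of these marker differences, and of other cell types, in the values below was not tested.

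As a whole the pathway differed little between the arrays. Of 36 genes, 33 were measured, which means well above background on at least 1 array. At the 2-fold mark, Ppargc1a alone was higher in the knockdown and 0 members were lower, while among all 13772 measured genes 9.00% passed it upward and 8.35% downward. Ppargc1a counted as measured only through the knockdown array, where it was higher, and its second probe was not well above background on either array. The other 32 genes lay within 2-fold. The median difference over the 33 genes was -0.011, and over all measured genes it was -0.051. The median size of a difference, regardless of sign, was 0.23 in the pathway and 0.34 over all genes. Nearly all members, 32, were above background on both arrays. Among genes so measured the sizes were closer, 0.22 in the pathway and 0.31 over all, and 6.31% of all passed 2-fold upward and 5.52% downward. For 7 of the 33 genes the difference was smaller than 0.0784, the spread (SD) of a difference between single spots taken independently from the arrays, and for 3 of them, Acsl4, Etfb and Etfdh, it was smaller than 0.044, the spread between spots at the same position.

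**Figure D1:**
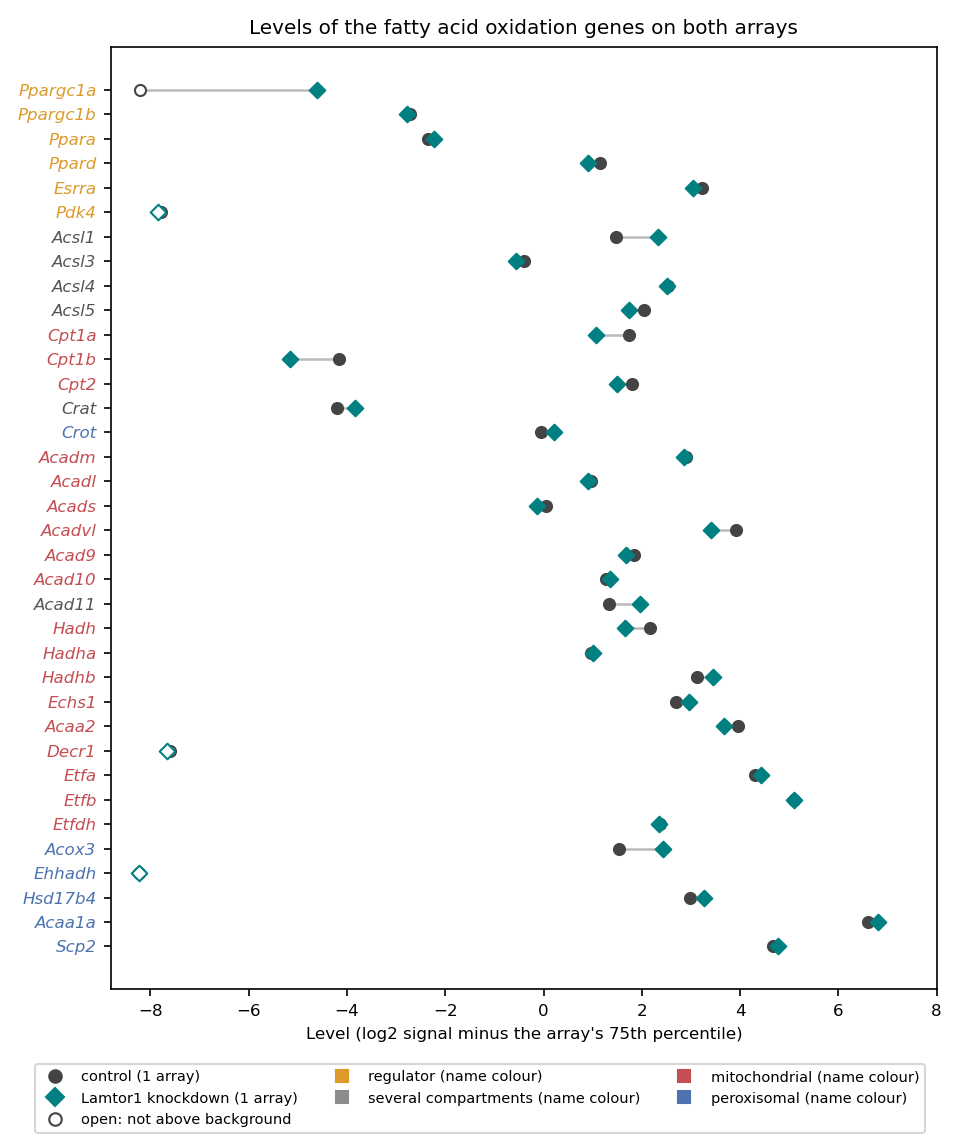
Level of each of the 36 genes on the control array (circles) and the Lamtor1 knockdown array (diamonds), as log2 signal minus the 75th percentile of the array, from the brightest probe of each gene, with open marks where the probe was not well above background and name colours for the compartment. Most pairs of marks nearly coincide, and Pdk4, Decr1 and Ehhadh are open on both arrays.

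Among the regulators, Ppargc1a, the coactivator that drives mitochondrial gene programmes, was above background in the knockdown alone, with a level of -4.62 there. Set against the dimmest signal that the control array still placed above background, its level was 2.55-fold higher. That is an approximate bound, since a signal not above background can lie over that mark. The Ppargc1a signal in the knockdown was itself dim, and with normexp, another background correction, the fold was 1.75. Under normexp, and among genes above background on both arrays, 0 members were 2-fold higher, against 5.70% and 6.31% of all genes. The Ppargc1a value rests on 1 probe, A_51_P279038, at chromosome 5, 51848928 to 51848987 in the mm9 build of the files. The other probe of the gene, A_55_P2011702, was not well above background on either array, at -7.63 in the control and -7.69 in the knockdown. The gene's promoter is the one above without a GC box.

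Ppargc1b, the second coactivator of this kind, had levels of -2.72 and -2.78, a difference of -0.059. Esrra, the orphan receptor that works with both coactivators on oxidative genes, had 3.22 in the control and 3.05 in the knockdown, a difference of -0.17. Ppara, the fatty acid receptor of oxidative tissues, had -2.35 and -2.23 at its brightest probe, a difference of 0.13, while its other 2 probes were not well above background on either array. These regulators thus lay within 2-fold on both sides of 0. Ppard, the receptor found in most tissues, had 1.14 and 0.91, a difference of -0.23. Pdk4, the kinase that shuts pyruvate dehydrogenase when fat is burned and a well known target of these receptors, was not well above background on either array.

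Activation was carried by 4 long-chain acyl-CoA synthetase genes, which sit on the endoplasmic reticulum, mitochondria and other membranes and feed both oxidation and lipid synthesis. Acsl1, the isoform tied to oxidation in many tissues and to inflammatory activation in macrophages, was 1.81-fold higher in the knockdown, at 1.48 in the control and 2.34 in the knockdown. Its second probe gave a difference of 0.74, in the same direction. The other 3 were lower by small amounts. Acsl5 had 2.05 and 1.75, a difference of -0.30, Acsl3 had -0.39 and -0.56, a difference of -0.17, and Acsl4, the isoform for arachidonic acid, had 2.54 and 2.52, a difference of -0.015.

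In the carnitine step the 3 mitochondrial palmitoyltransferase genes were all lower in the knockdown. Cpt1a, the enzyme of the outer membrane that controls entry of long chains, was 1.58-fold lower, from 1.73 to 1.08. Its probe was spotted 10 times and the differences of the single spots ran from -0.69 to -0.63, while its second probe gave -0.74. The spots are copies on the same arrays, so they cover spotting and scanning and do not replicate the knockdown. Cpt2, the partner enzyme of the inner membrane, had 1.79 and 1.49, a difference of -0.30, and -0.26 at its second probe.

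Cpt1b, the muscle form, was dim on both arrays. It went from -4.17 to -5.16, a 1.98-fold lower value just short of 2-fold. With normexp it was 1.40-fold lower, a smaller decrease than those of Cpt1a, Acadvl and Hadh in that setting. Its second probe, above background in the control alone, had levels of -5.55 and -7.77, a difference of -2.21. The size of that difference is uncertain, since the dimmest knockdown signal above background was at -5.96. As the median over both probes the Cpt1b difference was -1.60, which takes the second probe at face value. By that median, or with arrays scaled over probes above background, Cpt1b was the 1 member at least 2-fold lower, against 8.49% and 8.86% of all genes. The acetyl and octanoyl transferases went the other way. Crat, an enzyme of both organelles that handles short chains, had -4.19 and -3.83, a difference of 0.37, which was 0.16 with normexp. Crot, the peroxisomal enzyme that hands shortened chains on to mitochondria, had -0.058 and 0.22, a difference of 0.28.

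Among the acyl-CoA dehydrogenases, which start each mitochondrial turn, Acadvl, for very long chains, was 1.43-fold lower, from 3.92 to 3.40. Acadl and Acadm, for long and medium chains, had differences of -0.060 and -0.057, at 0.97 against 0.91 and 2.91 against 2.85, below the spot spread of 0.0784. Acads, for short chains, had 0.041 and -0.13, a difference of -0.17. Acad9, which also helps assemble respiratory complex I, had 1.84 and 1.67, a difference of -0.16, and Acad10 had 1.26 and 1.35, a difference of 0.085. Acad11 stood apart from this family. It was 1.56-fold higher, from 1.33 to 1.97, and has been placed in both organelles, so it was counted in neither.

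The later steps of the mitochondrial cycle went in both directions. Hadh, the dehydrogenase for shorter chains, was 1.43-fold lower, from 2.18 to 1.66, and Acaa2, the matrix thiolase, had 3.95 and 3.68, a difference of -0.27. The probe of Acaa2 was spotted 10 times, with single-spot differences from -0.32 to -0.21. Hadhb, the thiolase subunit of the trifunctional protein, had 3.11 and 3.45, a difference of 0.34, while Hadha, its partner subunit, had 0.96 and 1.01, a difference of 0.044. Echs1, the short-chain hydratase, had 2.70 and 2.96, a difference of 0.26. The difference of Hadha was below the spot spread of 0.0784, and that of Hadhb was above it.

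Of the auxiliary enzymes for unsaturated chains, Decr1 was not well above background on either array at either of its 2 probes. Eci1, the isomerase found under the symbol Dci, was 1.41-fold lower, from 2.60 to 2.10. Electron transfer was nearly flat. Etfa and Etfb, the 2 subunits of the flavoprotein, had differences of 0.13 and -0.011, and Etfdh, which passes the electrons to ubiquinone, had -0.0053. Both probes of Etfa gave 0.13.

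All 5 measured peroxisomal genes were higher in the knockdown, each by less than 2-fold. Acox3, the oxidase that starts the oxidation of branched chains, was 1.86-fold higher, from 1.54 to 2.44, and its second probe gave 0.51. Hsd17b4, the bifunctional protein of branched and very long chains, had 2.98 and 3.27, a difference of 0.29. Acaa1a, a peroxisomal thiolase, had 6.61 and 6.81, a difference of 0.21. Its near-identical copy Acaa1b had a difference of 0.36, and whether these probes tell the copies apart was not tested. Scp2, the thiolase and sterol carrier, had 4.67 and 4.77, a difference of 0.10, but its second probe gave -0.039. Ehhadh, the bifunctional enzyme of the straight-chain branch, was not well above background on either array.

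**Figure D2:**
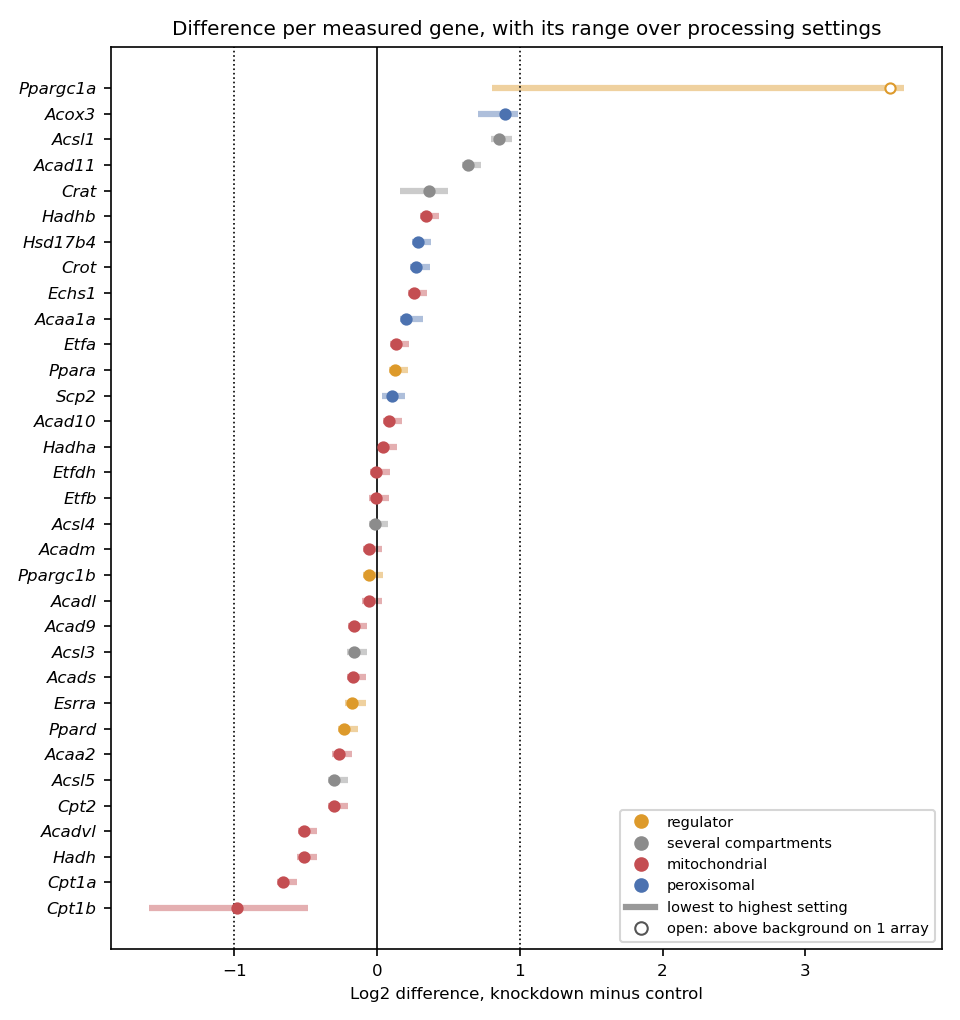
Log2 difference, knockdown minus control, of the 33 measured genes, ordered by size (points, open for the gene above background on 1 array), with bars from the lowest to the highest value over the processing settings tried and dotted lines at 2-fold. Ppargc1a and Cpt1b have the widest bars, and all 5 peroxisomal genes lie to the right of 0.

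Set against each other, the 17 measured mitochondrial genes had a median difference of -0.060, with 12 below 0 and 5 above, and the 5 measured peroxisomal genes had a median of 0.28, with 5 above 0. The mitochondrial median was thus 0.34 below the peroxisomal one. Genes placed in several compartments and the regulators entered neither side. Over all measured genes 45.7% were above 0. The ranges overlapped: the mitochondrial genes ran from -0.99 to 0.34 and the peroxisomal ones from 0.10 to 0.90, so that Hadhb, Echs1 and Etfa lay among the peroxisomal values. Genes of a pathway are not replicates, so this contrast was not tested. The 5 peroxisomal genes were above 0 under every setting tried. Median scaling adds 0.092 to every difference, which put 53.9% of all genes, 9 of the 17 mitochondrial genes and the mitochondrial median (0.032) above 0. Against the median of all genes, which no such shift can alter, 10 of the 17 mitochondrial genes were below and 5 of 5 peroxisomal genes above.

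**Figure D3:**
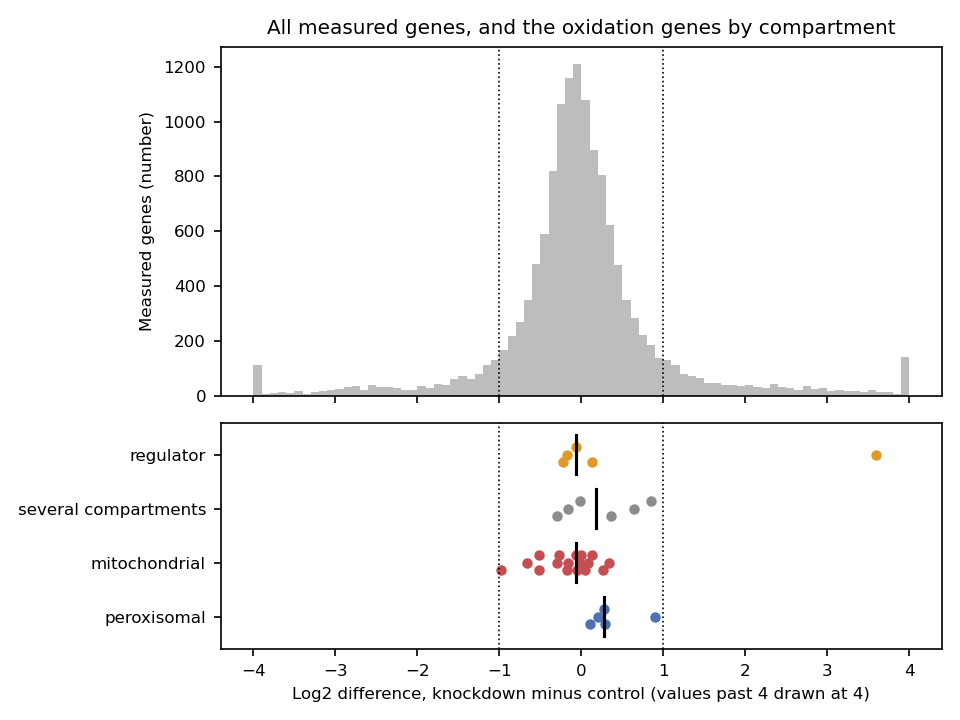
Top, number of measured genes by log2 difference, knockdown minus control, in bins of 0.1, with values past 4 drawn at 4. Bottom, the oxidation genes by compartment (points) with the median of each group (bars), where the peroxisomal median of 0.28 lies to the right of the mitochondrial one of -0.060 and the dotted lines mark 2-fold.

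The contrast did not extend to wider lists of genes tied to oxidation in these compartments, where the order of the medians was turned. The lists follow the pathway and not the place of each protein, and genes of several compartments were not set apart in them. The mitochondrial list reaches beyond fatty acids, with genes of amino acid and propionyl-CoA breakdown such as Ivd, Gcdh and Pccb. Of its 21 measured genes, 13 were above 0, against 45.7% of all genes, with a median of 0.094. In each direction 1 of them passed 2-fold, against 9.00% upward and 8.35% downward among all genes. With normexp 0 did in either direction (5.70% and 4.43% of all genes), while 2 were higher with cyclic loess or median scaling (9.80% and 9.95%). Acacb, which makes the malonyl-CoA that inhibits carnitine transfer, was 2.86-fold lower, from -3.64 to -5.16, and 1.73-fold lower with normexp. Cpt1c, the neuronal relative of Cpt1a and Cpt1b, was above background in the knockdown alone. It was 2.92-fold higher by the approximate bound, or 1.41-fold higher with normexp. Pccb, of propionyl-CoA breakdown, was 1.91-fold higher, from -2.11 to -1.18.

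Of 15 other measured genes of peroxisomal oxidation, 8 were above 0, against 45.7% of all genes. Their median was 0.0065, below that of the other mitochondrial genes. By the median over probes, or with genes above background on both arrays, the peroxisomal median was 0.12 and the higher one, against 0.094 and 0.076. At 2-fold 1 gene was lower, Abcd2, a transporter of very long chains. It was above background in the control alone and 3.14-fold lower by the approximate bound. With normexp Abcd2 was 1.94-fold lower, so that 0 genes of the list were then 2-fold lower, as also among genes above background on both arrays (5.52% of all genes). Acot4 was above background in the control alone and 1.18-fold lower by the same kind of bound. Amacr, the racemase needed for branched chains, was 1.88-fold higher, from 0.33 to 1.24. Joining each compartment's members with these genes was done after their values were seen. The joined mitochondrial median was -0.0084 over 38 genes and the peroxisomal one 0.13 over 20, a distance of 0.14. Of 16 peroxisome biogenesis genes 12 were above 0, against 45.7% of all genes, with a median of 0.13. None was at 2-fold, against 9.00% upward and 8.35% downward among all genes. Pex10 and Pex16 had differences of 0.59 and 0.56.

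Partners and cofactors of the regulators were mostly lower, by less than 2-fold. Of 16 measured genes 4 were above 0 and 12 below, with a median of -0.39, while 45.7% of all genes were above 0. None reached 2-fold, against 9.00% upward and 8.35% downward among all genes. Pparg, the third PPAR, was 1.88-fold lower, from -2.42 to -3.34, and Nrip1, a corepressor of oxidative genes, 1.86-fold lower, from -0.75 to -1.64. Gabpa was 1.75-fold lower at its brightest probe, though its other probe gave -0.15. Over the settings tried the median of this list stayed between -0.43 and -0.16.

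The pyruvate dehydrogenase complex, which supplies acetyl-CoA from sugar and is restrained by the PDK kinases, was similar. Of 13 measured genes 3 were above 0, against 45.7% of all genes, with a median of -0.29. None was at 2-fold, against 9.00% upward and 8.35% downward among all genes. Pdk3 was 1.76-fold lower, from 0.19 to -0.63, Dlat, the core subunit, 1.64-fold lower, and Pdk2 1.70-fold higher, from -2.26 to -1.50. Other known PPAR target genes did not move one way. Of 9 measured genes 1 was higher and 2 were lower by 2-fold or more, against 9.00% and 8.35% of all genes, with a median of -0.52. With no filter on dim probes the median was -0.25 over 13 genes. Plin2, the coat protein of lipid droplets, was 2.03-fold higher, from 3.93 to 4.95. With arrays scaled over probes above background it was 1.97-fold higher, and 0 genes of the list were then 2-fold higher, against 8.61% of all genes. Angptl4, an inhibitor of lipoprotein lipase, was 2.87-fold lower, from 1.10 to -0.42, and the thioesterase gene Acot1 2.79-fold lower, from 1.88 to 0.40. Whether the Acot1 probe tells that gene from its close relatives was not tested.

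**Figure D4:**
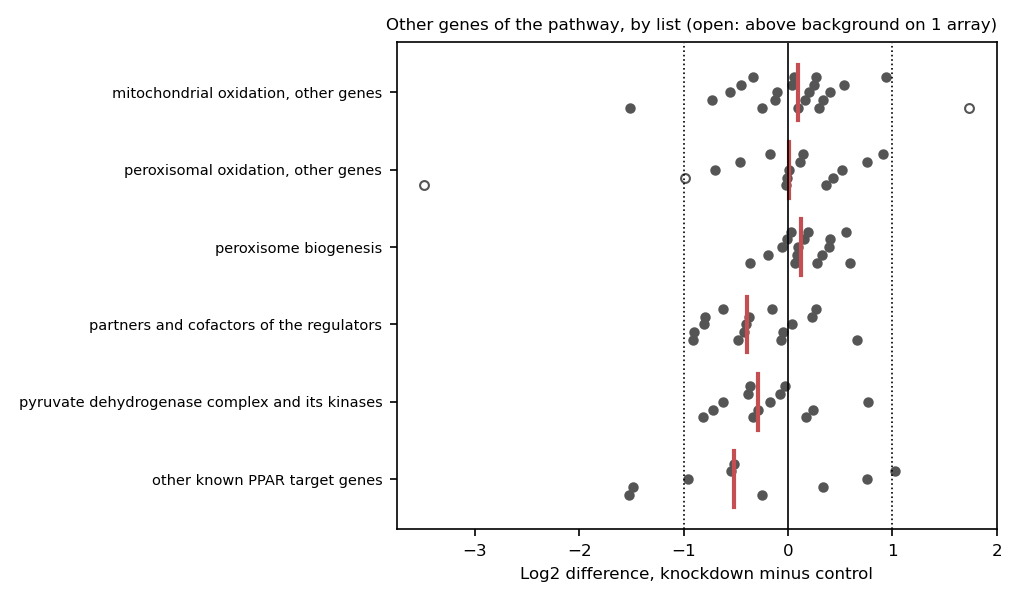
Log2 difference, knockdown minus control, of other measured genes in and around the pathway in 6 lists (points, open where a gene was above background on 1 array) with the median of each list (red bars) and dotted lines at 2-fold. The medians run from -0.52 in other known PPAR target genes to 0.13 in peroxisome biogenesis.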

How the data were processed

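Total RNA of 1 control and 1 Lamtor1 knockdown sample was labelled with Cy3, per the labels. The deposited files give each spot's intensity from Agilent Feature Extraction 10.7.3.1, per the submitters' processing notes. Per the file headers, that intensity was corrected for trends within the array, dim signals were replaced by surrogates, both arrays lay on 1 slide in 1 scan, and probe positions are in mm9. The deposited value table holds the same intensity, rounded, on a linear scale.

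Control spots and outlier flags (162 and 177 spots) were left out. From the log2 intensity, that of the 75th percentile of each array (1172 and 1255) was subtracted, and spots of a probe were averaged. A probe was above background if the scanner flagged more than 50% of its spots so. The probe with the highest mean level stood for its gene. Probes were named through RefSeq (GRCm38.p6, names only): 26055 of 39429 by accession, 3195 by symbol, 930 by older symbol and 9249 not named. A gene above background on 1 array is given as an approximate bound, set against the dimmest signal above background on the other array. Spot spread came from 216 repeated probes and covers spotting and scanning only. Its larger form, which treats the arrays' spots as independent, was used to judge settings.

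The members, the neighbouring lists and the settings were chosen with earlier results of these data known. The text accounts for every member and names, of each list, the 3 measured genes with the largest differences, except 1 that is not reported here, while Acaa1b was named after its values were seen. Settings tried were normexp (limma 3.58.1, offset 50), quantile, cyclic loess and median scaling, scaling over probes above background, filters on dim probes, the median over probes, bounds, and the deposited table. The calculation was tested on simulated data.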

Additional observations from a re-analysis of the deposited data

How the results depend on the processing

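With 1 array per group no replicate could be left out, and depth is replaced by signal over background, which limits the dim genes Ppargc1a, Cpt1b and Crat. No paired analysis was possible because each group holds 1 sample and no test was made. With normexp, and also when genes had to be above background on both arrays, 0 members were at least 2-fold higher, Ppargc1a being 1.75-fold higher in the first case and left out in the second. When arrays were scaled over probes above background, and likewise by the median over probes, 1 member, Cpt1b, was at least 2-fold lower. In the latter case the value rests on a probe that was not above background in the knockdown. Median scaling moved every difference up, giving medians of 0.081 over all members, 0.032 for mitochondrial and 0.37 for peroxisomal genes. Joining each compartment with its other genes, an alternative chosen after seeing the data, gave a peroxisomal median of 0.13 and a distance of -0.14 between mitochondrial and peroxisomal medians, against -0.34 for the members alone. The members' remaining medians and counts stayed within the spot spread of 0.0784 or within 1.5 times under the other settings. The neighbouring lists moved more. With no filter on dim probes the median of the regulators' partners was -0.16 against -0.39, and that of PPAR targets -0.25 against -0.52. The median of the other peroxisomal genes ran from -0.036 to 0.12, and median scaling raised every list median by 0.092. Counts at 2-fold in the lists of other mitochondrial genes, other peroxisomal genes and PPAR targets were 0 to 3 per direction over the settings. These lists held 21, 15 and 9 measured genes in the main setting. The 3 were PPAR targets lower with no filter on dim probes, of 13 genes, against 7.72% of all genes. Over the settings 5.70% to 9.95% of all genes passed 2-fold upward and 4.43% to 8.86% downward. Of 33 measured members, 27 kept their sign in all settings that gave them a value, and the other 6 had differences of at most 0.060 in size.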
